A study of Mus musculus with 9 samples.

Results

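The genes described here are the mouse enzymes that build cholesterol and fatty acids, with the regulators that set their level, read in thymus stroma before and after mice were irradiated. A list of 29 genes was taken from the textbook pathways, and its members were read from array probe sets that are annotated to exactly 1 gene symbol. The list held 18 cholesterol synthesis enzymes, 5 regulators and carriers of sterols and 6 fatty acid synthesis enzymes. A probe set was found for 28 of the 29, out of 18193 genes in all, and 26 were bright enough to be tested, out of 10937 tested genes. Acat2 was not analysed here. Mvd, which makes isopentenyl diphosphate, lay below the detection level on all 9 arrays, and Mvk, the mevalonate kinase, reached that level on 2 day 7 arrays only. The detection level was set at a log2 value of 4.

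The 3 groups were female C57BL/6J mice aged 6 to 8 weeks that were untreated, mice taken at day 4 and mice taken at day 7 after SL-TBI, which is usually read as sublethal total body irradiation. The irradiated mice received 550 cGy from a cesium source, with no rescue by hematopoietic cells. Each group held 3 samples. In every group CD45-bearing blood cells were depleted on magnetic columns, and each sample pooled several mice. Whether samples of the same group were separate pools is not stated, so the p-values measure a spread between samples that may be technical. Each sample was read on 1 Affymetrix mouse array, so the number of arrays limits the precision. All values below are log2 expression levels (GCRMA), a difference is a difference of log2 means, given with its standard error (SE), and every adjusted p comes from a limma fit over all tested genes.

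Cholesterol is built from acetyl-CoA. HMG-CoA is made and turned into mevalonate, mevalonate is turned into isoprenoid units, these are joined to squalene, and squalene is closed to a ring and trimmed to cholesterol. Fatty acids start from the same acetyl-CoA through malonyl-CoA, and are then elongated and desaturated. Transcription of both branches is driven by SREBP factors, which are membrane proteins held in the endoplasmic reticulum by INSIG proteins when sterols are plentiful and released for cleavage when sterols run low. The product of Srebf2 acts mostly on the cholesterol branch and the main product of Srebf1 mostly on the fatty acid branch. Srebf1 is also a target of LXR, the nuclear receptor for oxysterols, which raises genes of sterol export. SREBP factors bind sterol regulatory elements close to start sites, commonly beside a CCAAT box bound by NF-Y.

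Promoter sequence was taken from RefSeq (GRCm38.p6) as windows from 250 bases before to 50 bases after each start site, and 23 of the 29 members had one. The 5 stretches below are the part before the start site, printed 5′ to 3′ on the strand of the gene. They are shown because Hmgcs1, Idi1, Cyp51 and Insig1 were among the members lower at day 4, and Elovl6 among those higher. Capitals mark CCAAT or its reverse complement ATTGG, and in Hmgcs1 also TCACNCCAC, a core spelling of the sterol regulatory element.
Hmgcs1, chr13:119690101-119690350, plus strand: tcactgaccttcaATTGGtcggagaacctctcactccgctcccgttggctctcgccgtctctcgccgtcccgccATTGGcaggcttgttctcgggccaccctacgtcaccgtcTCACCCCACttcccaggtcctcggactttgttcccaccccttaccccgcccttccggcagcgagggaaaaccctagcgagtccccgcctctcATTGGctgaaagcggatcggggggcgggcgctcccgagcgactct
Idi1, chr13:8885356-8885605, plus strand: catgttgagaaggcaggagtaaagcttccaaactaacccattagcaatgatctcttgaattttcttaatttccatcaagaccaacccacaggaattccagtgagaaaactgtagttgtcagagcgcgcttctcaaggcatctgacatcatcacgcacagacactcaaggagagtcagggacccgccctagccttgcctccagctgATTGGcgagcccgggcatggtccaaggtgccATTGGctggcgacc
Cyp51, chr5:4104698-4104947, minus strand: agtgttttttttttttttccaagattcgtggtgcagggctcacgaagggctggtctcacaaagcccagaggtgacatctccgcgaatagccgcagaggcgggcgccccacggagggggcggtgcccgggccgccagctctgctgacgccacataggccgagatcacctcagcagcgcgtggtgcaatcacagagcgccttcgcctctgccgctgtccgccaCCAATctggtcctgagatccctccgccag
Insig1, chr5:28071162-28071411, plus strand: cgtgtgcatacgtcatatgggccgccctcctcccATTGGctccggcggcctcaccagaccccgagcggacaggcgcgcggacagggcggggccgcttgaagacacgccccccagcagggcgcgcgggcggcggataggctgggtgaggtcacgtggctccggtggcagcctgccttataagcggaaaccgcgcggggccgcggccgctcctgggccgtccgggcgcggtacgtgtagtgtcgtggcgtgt
Elovl6, chr3:129532136-129532385, plus strand: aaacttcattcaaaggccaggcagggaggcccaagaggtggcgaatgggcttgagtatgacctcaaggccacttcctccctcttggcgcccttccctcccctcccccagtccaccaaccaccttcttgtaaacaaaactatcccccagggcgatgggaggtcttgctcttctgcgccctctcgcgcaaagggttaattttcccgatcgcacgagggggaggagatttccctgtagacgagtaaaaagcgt

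The CCAAT letters were found on either strand in the windows of 20 of the 23 members (87.0%), against 41.1% of 27025 genes with a window of the same length. Single windows gave 21 of 30 (70.0%) for the members and 37.4% of 32851 over all genes, since some genes have several start sites. All 8 members that were lower at day 4 and had a window held the letters, in 8 of their 11 windows (72.7%). Tm7sf2 and Srebf1, called higher at day 4, held the letters as well. Of the 4 fatty acid enzymes with a window, Fasn and Acly held them, and Acaca and Elovl6 did not. The spelling TCACNCCAC was found in 1 of the 23 members (4.35%), in Hmgcs1 at 137 bases before the start site, against 1.44% of all genes. It overlapped no CCAAT match there. A match of letters describes the sequence and is not a measured binding site, and these windows were not read in any sample.

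Day 4 against untreated shows the pathway early after irradiation. Much of the cholesterol branch was lower. Of its 15 tested enzymes 8 fell, 1 rose and 6 did not pass the test, with a median difference of -0.53 against 0.20 over all tested genes. Over all genes 21.4% were called lower and 41.8% higher. For 8 of the 15 every day 4 array lay below every untreated array, as it did for 22.9% of all tested genes. Of the 6 tested fatty acid enzymes 3 rose and 0 fell, with a median difference of 0.29 that turned to -0.02 with arrays centred on epithelial markers and to -0.44 with arrays centred on fibroblast and endothelial markers. The cholesterol median stayed below 0 under these scalings, at -0.84 and -1.26. In bulk samples, fewer cells of a type and less RNA per cell cannot be told apart.

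All 4 tested early mevalonate enzymes fell, with a median of -1.74, where 21.4% of all tested genes were called lower. Idi1, which isomerises the isoprenoid unit, stood at 8.51, 8.32 and 8.34 in untreated samples and at 6.20, 5.89 and 5.68 at day 4. The groups lay far apart with no overlap. Idi1 was 5.54-fold lower (-2.47, SE 0.157, adjusted p = 3.35e-06). Fdps, which makes farnesyl diphosphate, went from 5.84, 6.21 and 6.01 to 3.79, 3.31 and 4.19, so that 1 of 3 day 4 arrays still reached the detection level. The difference was -2.26 (SE 0.218, adjusted p = 3.28e-05), and its size is less certain where day 4 arrays lie below that level. Hmgcs1, which makes HMG-CoA, was at 10.01, 10.02 and 10.23 in untreated samples and at 8.99, 8.85 and 8.77 at day 4. That is a 2.32-fold fall (-1.22, SE 0.109, adjusted p = 2.16e-05) with no overlap. Pmvk, which adds the second phosphate to mevalonate, fell least, by 0.53 (SE 0.113, adjusted p = 0.00312). Its arrays ran from 6.21 to 6.51 in untreated samples and from 5.66 to 5.88 at day 4.

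Among the 11 squalene and sterol enzymes 4 fell, 1 rose and 6 did not pass the test, against 21.4% lower and 41.8% higher over all tested genes. Dhcr7, which catalyses the final reduction to cholesterol, stood at 6.09, 5.82 and 6.11 in untreated samples and at 3.79, 3.94 and 4.09 at day 4. With 1 of 3 day 4 arrays at the detection level, its difference of -2.07 (SE 0.140, adjusted p = 4.74e-06) has the same limit. Cyp51, the lanosterol demethylase, went from 6.72, 6.89 and 6.73 to 5.39, 5.25 and 5.27. The 3 day 4 arrays were close together and all below the untreated ones, and the difference was -1.48 (SE 0.107, adjusted p = 6.66e-06). Msmo1, the sterol methyl oxidase that acts after Cyp51, stood at 7.12, 7.16 and 7.39 and then at 6.58, 6.29 and 6.18, a fall of 0.87 (SE 0.138, adjusted p = 0.000567). Fdft1, the squalene synthase, went from 8.37, 8.33 and 8.33 to 7.79, 7.76 and 7.57 and fell by 0.63 (SE 0.109, adjusted p = 0.000917). For both genes every day 4 array lay below every untreated one.

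The other sterol enzymes gave smaller differences, and calls that depended on the scaling, the array weights or the probe set. With arrays centred on epithelial markers Sqle (-0.35, adjusted p = 0.0296), Lss (-0.49, adjusted p = 0.0242), Nsdhl (-0.44, adjusted p = 0.0115) and Ebp (-0.65, adjusted p = 0.00946) were called lower, and with centring on the median of kept genes Nsdhl (-0.27, adjusted p = 0.0356) and Ebp (-0.48, adjusted p = 0.0358) were. In the limma fit without alternatives they gave no call. Array weights alone also gave a lower call for Ebp (-0.35, adjusted p = 0.0393). Sqle, the squalene epoxidase and a rate-limiting enzyme, was at 7.25, 7.23 and 7.31 in untreated samples and at 7.44, 7.16 and 7.08 at day 4. These groups overlapped, and the difference of -0.03 had a 95% interval from -0.27 to 0.20 (adjusted p = 0.784). Lss, which closes the lanosterol ring, differed by -0.18 (adjusted p = 0.24). A different probe set of the gene was called higher, by 0.36 (adjusted p = 0.0193). The remaining enzymes Nsdhl, Hsd17b7, Ebp and Sc5d, which trim and rearrange the sterol ring, had differences from -0.34 for Ebp to 0.10 for Sc5d, with adjusted p from 0.115 to 0.927. A second probe set of Sc5d rose by 1.01 (adjusted p = 0.000111), and with the mean of its probe sets Sc5d was called higher (0.37, adjusted p = 0.0047). Tm7sf2, a sterol reductase, was called higher by 0.40 (adjusted p = 0.0291), but all its untreated and day 4 arrays lay below the detection level, and the call was lost under 8 of the alternatives, with adjusted p up to 0.678, and the difference turned to -0.34 with arrays centred on fibroblast and endothelial markers.

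**Figure D1:**
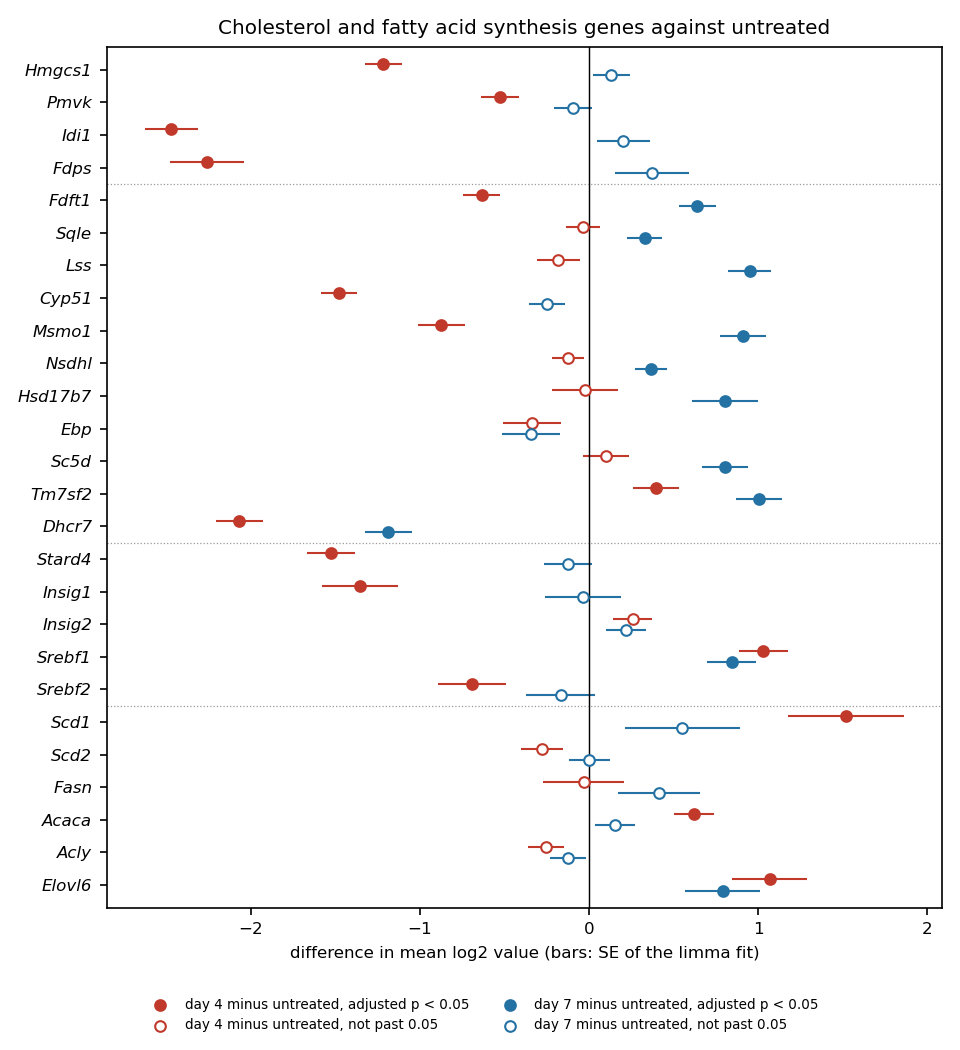
Differences of the 26 tested members on the log2 scale (horizontal axis) for day 4 (red) and day 7 (blue) against untreated, 3 arrays a group, with bars of 1 SE of the limma fit and filled points past an adjusted p of 0.05. At day 4 Idi1 lies farthest below 0 at -2.47 and Scd1 farthest above at 1.52, and the positive day 7 differences turn negative with arrays centred on fibroblast and endothelial markers.

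Of the 5 regulators and carriers 3 fell at day 4 (Insig1, Stard4 and Srebf2), Srebf1 rose and Insig2 gave no call. Over all tested genes 21.4% were called lower and 41.8% higher. Insig1, which holds SREBP in the endoplasmic reticulum and is itself an SREBP target, stood at 8.13, 7.60 and 8.29 in untreated samples and at 6.92, 6.33 and 6.70 at day 4. All day 4 arrays were below all untreated ones, and the fall was 2.56-fold (-1.35, SE 0.224, adjusted p = 0.00074). Stard4, a carrier of cholesterol between membranes, went from 5.14, 5.49 and 5.34 to 3.76, 3.81 and 3.82. It was below the detection level on every day 4 array and is at least 2.50-fold lower (adjusted p = 2.93e-05). Srebf2 was at 6.75, 6.13 and 6.68 and then at 6.01, 5.99 and 5.48, with a difference of -0.69 (SE 0.203, adjusted p = 0.0151). Leaving out untreated replicate 1 (adjusted p = 0.0568) or day 4 replicate 3 (0.053) ended that call, as did the fit without the filter on dim genes (0.0516) and the mean of its probe sets (-0.29, adjusted p = 0.0948), and a second probe set of Srebf2 gave 0.12. Srebf1 rose from 9.25, 9.09 and 9.61 to 10.36, 10.33 and 10.33. Its day 4 arrays lay close together above every untreated array, at a 2.04-fold difference (1.03, SE 0.145, adjusted p = 0.000298). Insig2, the second INSIG gene, differed by 0.26 (adjusted p = 0.0804).

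**Figure D2:**
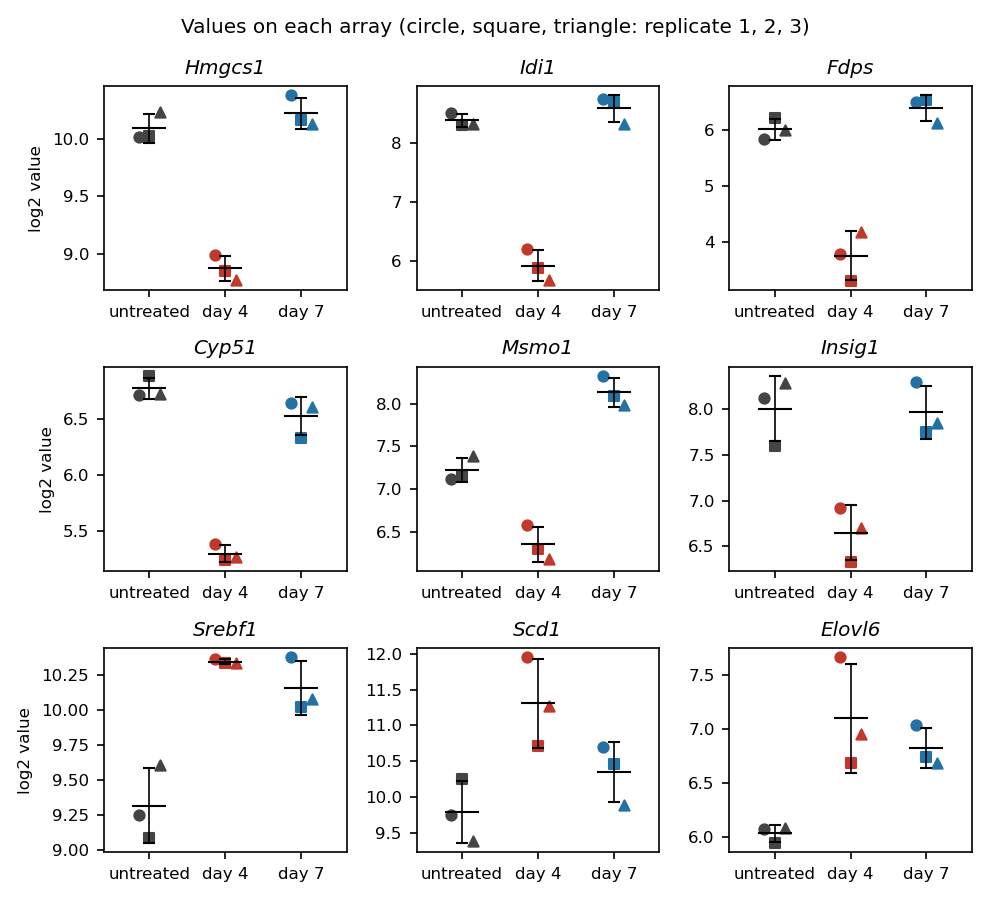
Log2 expression level (vertical axes, each with its own range) of 9 members in the untreated, day 4 and day 7 samples, 1 point per array with the mean and SD of 3 arrays. Hmgcs1, Idi1, Fdps, Cyp51, Msmo1 and Insig1 are lowest on the 3 day 4 arrays, while Srebf1, Scd1 and Elovl6 are higher there than on every untreated array.

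Scd1, Elovl6 and Acaca were the 3 of the 6 fatty acid enzymes called higher at day 4, where 41.8% of all tested genes were. Scd1, which puts the first double bond into stearate, was at 9.75, 10.25 and 9.38 in untreated samples and at 11.95, 10.71 and 11.26 at day 4. The groups did not overlap but the day 4 arrays were spread widely, and the difference was 2.87-fold (1.52, SE 0.343, adjusted p = 0.00409). Elovl6, the elongase that turns palmitate into stearate, stood at 6.08, 5.94 and 6.08 and then at 7.67, 6.69 and 6.95. It was 2.10-fold higher (1.07, SE 0.222, adjusted p = 0.00265), with no overlap. Acaca, the acetyl-CoA carboxylase and the committed step of the branch, went from 6.99, 6.73 and 7.07 to 7.66, 7.41 and 7.59, a difference of 0.62 (SE 0.118, adjusted p = 0.00161). Its call was lost with the mean of its probe sets (0.23, adjusted p = 0.0502) and with centring on epithelial markers (0.31, adjusted p = 0.113).

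The other three enzymes of the branch gave no call at day 4 in the limma fit, and at an unadjusted p under 0.05 only 1 of them, Acly, was lower. Fasn, the fatty acid synthase, was at 9.67, 9.13 and 10.06 in untreated samples and at 9.88, 9.28 and 9.60 at day 4. These ranges overlapped, and the difference of -0.03 had a 95% interval from -0.58 to 0.51 (adjusted p = 0.917). Acly, which supplies cytosolic acetyl-CoA to both branches, differed by -0.25 (adjusted p = 0.0654). Scd2, a second stearoyl-CoA desaturase, differed by -0.28 (adjusted p = 0.0753) around levels above 12 on every array. With arrays centred on epithelial markers Acly (-0.57, adjusted p = 0.0064) and Scd2 (-0.59, adjusted p = 0.0104) were called lower. Both were also called lower with centring on the median of kept genes, an intensity trend or array weights. The mean of the 6 enzymes was 9.25, 9.11 and 9.29 in untreated samples and 9.96, 9.37 and 9.65 at day 4, whereas the mean of the 15 cholesterol enzymes went from 6.94, 6.96 and 7.01 to 6.26, 6.15 and 6.15.

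Scaling mattered for the small differences. With arrays centred on the fibroblast and endothelial marker lists, most of whose genes rose, the median of all genes moved to -0.54 at day 4 and -1.05 at day 7, and the share of calls at day 4 that were higher moved from 66.1% to 14.1%. The share was 54.6% with centring on the median of kept genes and 40.7% with centring on epithelial markers. With centring on the fibroblast and endothelial lists, 14 of 15 cholesterol enzymes were lower at day 4, and of the fatty acid enzymes Scd1 stayed higher (0.78, adjusted p = 0.0187), while Elovl6 (0.33, adjusted p = 0.249) and Srebf1 (0.29, adjusted p = 0.28) lost their calls and Acaca turned to -0.12. The day 4 falls of Hmgcs1, Idi1, Fdps, Cyp51, Msmo1, Dhcr7 and Insig1 kept their direction and their call in every alternative in which they were tested.

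Day 7 against day 4 asked whether the fall had passed. Of the 15 cholesterol enzymes 14 were higher at day 7 than at day 4, with a median of 0.88, where 9.78% of all tested genes were called higher and 17.6% lower and the median over all genes was -0.10. For the same 14 every day 7 array lay above every day 4 array, as it did for 17.9% of all tested genes. The 14 include Tm7sf2, which passed the filter only through its day 7 arrays. Ebp, the sterol isomerase, was the exception at -0.01 (adjusted p = 0.98). Of the 6 fatty acid enzymes 0 were higher in the limma fit and 1, Acaca, was lower, and at an unadjusted p under 0.05 Scd2 was higher and Acaca and Scd1 lower. With centring on the fibroblast and endothelial lists 7 of the 14 calls held, those of Hmgcs1, Idi1, Fdps, Fdft1, Lss, Cyp51 and Msmo1, while Sqle turned to -0.04.

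The largest rises from day 4 were those of Idi1 and Fdps. This comparison and the one above share the day 4 arrays, so a low day 4 value enters both. Idi1 reached 8.75, 8.70 and 8.34 at day 7, which is 6.38-fold above day 4 (2.67, SE 0.157, adjusted p = 1e-05). Fdps reached 6.51, 6.54 and 6.13, a difference of 2.63 (SE 0.218, adjusted p = 8.79e-05). Both genes were above every day 4 array on all 3 day 7 arrays. Hmgcs1 returned to 10.37, 10.16 and 10.12 (1.35, SE 0.109, adjusted p = 7.55e-05). Cyp51 rose to 6.64, 6.33 and 6.61 (1.23, SE 0.107, adjusted p = 0.000112), still below every untreated array. Insig1 returned to 8.30, 7.75 and 7.85 (1.32, SE 0.224, adjusted p = 0.0038), and Stard4 to 5.45, 4.91 and 5.22, at least 2.29-fold above day 4 (adjusted p = 0.000318). For Srebf2 the difference from day 4 did not pass the test (0.52, adjusted p = 0.0851).

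Several of the smaller differences lost their call when 1 array was left out. Sqle was 0.36 above day 4 (adjusted p = 0.0294), and leaving out day 4 replicate 2 or 3 or any day 7 replicate ended that call, with adjusted p from 0.07 to 0.0926. Pmvk was 0.43 above day 4 (adjusted p = 0.0226), a call lost without day 4 replicate 1 (0.0504), day 4 replicate 3 (0.0685), day 7 replicate 1 (0.0677) or day 7 replicate 3 (0.073). Acaca fell from day 4 to 7.21, 7.02 and 7.02 (-0.47, adjusted p = 0.02), and this was lost without day 4 replicate 1 (0.0709), day 4 replicate 3 (0.0553), day 7 replicate 2 (0.0719) or day 7 replicate 3 (0.0649). Hsd17b7 was 0.83 above day 4 (adjusted p = 0.0149), and this was lost without day 4 replicate 1 (0.0511) or without the filter on dim genes (0.0554). Sc5d was 0.71 above day 4 (adjusted p = 0.00655), a call lost with the mean of its probe sets (0.24, adjusted p = 0.069), and its second probe set gave -0.13.

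**Figure D3:**
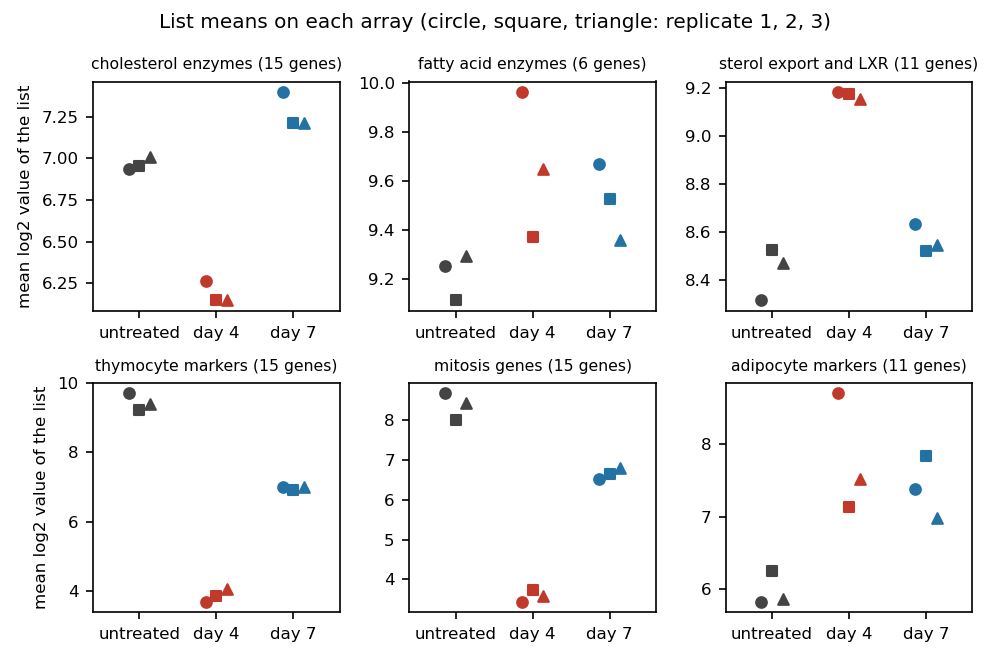
Mean log2 expression level per array (vertical axes, each with its own range) of 6 gene lists, 1 point per sample, for untreated, day 4 and day 7. The cholesterol enzymes sit at 6.15 to 6.26 on the day 4 arrays and at 6.94 to 7.40 on all others, and thymocyte markers and mitosis genes are also lowest at day 4.

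Day 7 against untreated asked whether the pathway came back to where it had been. Of the 15 cholesterol enzymes 8 were higher than in untreated samples, 1 was lower and 6 gave no call, with a median of 0.37 against 0.09 over all genes, but with centring on the fibroblast and endothelial lists 0 were higher and 9 were lower. Over all genes 32.1% were called higher and 22% lower. The 8 include Tm7sf2, which passed the filter only through its day 7 arrays. The 4 early mevalonate enzymes gave no call in the limma fit, and 0 passed at an unadjusted p under 0.05, with differences from -0.10 for Pmvk to 0.37 for Fdps (adjusted p = 0.174), and the 8 calls were all in the squalene and sterol segment. Of the 4 tested probe sets of Hmgcs1, however, 1 that did not represent the gene was called higher (0.41, adjusted p = 0.0303). Of the 6 fatty acid enzymes 1, Elovl6, was higher.

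Lss, Sc5d, Hsd17b7, Nsdhl, Sqle and Tm7sf2 were called higher than in untreated samples. Lss stood at 7.13, 6.87 and 6.80 at day 7, above untreated samples at 5.99, 5.80 and 6.17. No array overlapped, and the difference was 0.95 (SE 0.127, adjusted p = 0.000373). Sc5d, the sterol desaturase, was at 9.41, 9.64 and 9.50 against 8.60, 8.70 and 8.83 (0.81, SE 0.136, adjusted p = 0.00122). Hsd17b7 was at 6.83, 6.12 and 6.44 against 5.41, 5.77 and 5.80 (0.80, SE 0.195, adjusted p = 0.00746). Nsdhl was higher by 0.37 (adjusted p = 0.00969) and Sqle by 0.33 (adjusted p = 0.0231). Of these, Nsdhl lost its call with centring on epithelial markers (adjusted p = 0.22), and Sqle lost it there (0.31) and without untreated replicate 1 (0.0624), day 7 replicate 1 (0.0539), day 7 replicate 2 (0.0631) or day 7 replicate 3 (0.0573). Tm7sf2, below the detection level on all untreated arrays, was at 4.19, 4.25 and 4.48 at day 7, at least 1.24-fold higher (adjusted p = 0.000394). It passed the filter only through its 3 day 7 arrays, so its calls at day 7 are not independent of the filter. With centring on the fibroblast and endothelial lists each of these differences turned negative.

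Msmo1 and Fdft1, described above as lower at day 4, were the other 2 enzymes called higher at day 7. Over all tested genes, 17 of 10937 (0.155%) were called lower at day 4 and higher at day 7 against untreated. Both comparisons use the same untreated arrays. Msmo1 reached 8.32, 8.09 and 7.99 at day 7, which is 0.91 above untreated (SE 0.138, adjusted p = 0.000708), and Fdft1 reached 9.19, 8.89 and 8.86, which is 0.64 above (SE 0.109, adjusted p = 0.0013). With centring on the fibroblast and endothelial lists their day 7 differences turned to -0.23 and -0.50. Dhcr7 was the only cholesterol enzyme still called lower at day 7, at 5.07, 4.65 and 4.74 (-1.19, SE 0.140, adjusted p = 0.000208). It had risen from day 4 (0.88, adjusted p = 0.00276) and lay between the other 2 groups with no overlap. Cyp51 gave no call at day 7 in the limma fit, but every array lay below every untreated one (-0.25). It was lower at an unadjusted p under 0.05. With the mean of its probe sets (-0.28, adjusted p = 0.0461) Cyp51 was called lower. The same held with centring on kept genes (-0.29, adjusted p = 0.0339) or epithelial markers (-0.43, adjusted p = 0.0143).

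Srebf1 remained high, at 10.38, 10.02 and 10.08 (0.84 above untreated, SE 0.145, adjusted p = 0.00136), a difference that turned to -0.30 with centring on the fibroblast and endothelial lists. Against day 4 it differed by -0.19 (adjusted p = 0.367). Scd1 was at 10.69, 10.46 and 9.88, overlapping the untreated arrays, and neither difference passed the test (0.55 against untreated, adjusted p = 0.199, and -0.97 against day 4, adjusted p = 0.0651). Elovl6 was at 7.04, 6.75 and 6.69, which is 0.79 above untreated (adjusted p = 0.0151). The call was lost without day 7 replicate 1 (adjusted p = 0.0555) and without the filter on dim genes (0.0551), and the difference turned to -0.35 with centring on the fibroblast and endothelial lists. Fasn was at 10.22, 10.09 and 9.79, a difference of 0.41 from untreated that did not pass the test (adjusted p = 0.175). Insig1, Insig2, Srebf2 and Stard4 gave no call at day 7, with differences from -0.17 to 0.22. Stard4 was called lower with the mean of its probe sets (-0.53, adjusted p = 0.0157). Insig2 was called higher with array weights (0.26, adjusted p = 0.0399). Each of these genes was called lower with centring on the fibroblast and endothelial lists.

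The members had 65 probe sets in all, of which 42 were bright enough to be tested and 19 stayed below the detection level on all arrays. At day 4, 9 of the 12 members with at least 2 tested probe sets had the same sign in all of them, and Lss, Srebf2 and Acly did not. The 4 probe sets of Hmgcs1 gave -1.27 to -1.05, and the 2 of Idi1 gave -2.67 and -2.47. A second probe set of Cyp51 lay below the detection level on all 3 day 4 arrays and above it on all untreated ones. At day 7, 9 of the 12 had the same sign, and Insig2, Srebf2 and Acly did not.

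Neighbouring lipid lists were read in the same fit. Genes of sterol export, storage and LXR response were read at day 4, where 7 of 11 rose and 1 fell with a median of 0.77, which was 0.03 with centring on the fibroblast and endothelial lists. Over all tested genes 41.8% were called higher at this time and the median was 0.20. Abca1, which exports cholesterol from cells, was at 10.22, 10.51 and 10.68 in untreated samples, at 12.19, 12.11 and 12.22 at day 4 and at 10.92, 10.56 and 10.64 at day 7. Only the day 4 arrays stood apart, with a difference of 1.70 at day 4 (adjusted p = 1.2e-05) and 0.24 at day 7 (adjusted p = 0.171). Abcg1, a second exporter, rose by 0.77 (adjusted p = 0.000309), Mylip, a ubiquitin ligase induced by LXR, by 0.89 (adjusted p = 0.000192), and Cyp27a1, a sterol hydroxylase, by 2.22 (adjusted p = 1.05e-05). At day 7, 4 of the 11 were higher than in untreated samples and 2 lower, a share of higher calls near the 32.1% over all genes. Against day 4 in the limma fit 0 were higher (1 at an unadjusted p under 0.05) and 5 lower, with Abca1 at -1.47 (adjusted p = 0.000176).

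Of 19 other genes of fatty acid and lipid synthesis 11 were higher and 2 lower at day 4, against 41.8% and 21.4% of all tested genes, with a median of 0.60 that turned to -0.13 with centring on the fibroblast and endothelial lists. Slc25a1, which exports citrate from mitochondria for acetyl-CoA, rose from 6.31, 6.36 and 6.35 to 7.36, 7.41 and 7.28 (1.01, adjusted p = 9.02e-06). Gpam, which starts glycerolipid synthesis, rose by 0.78 (adjusted p = 5.18e-05), and the desaturases Fads2 and Fads1 rose by 1.07 (adjusted p = 0.000114) and 0.61 (adjusted p = 0.0093). At day 7, 8 of the 19 were higher and 2 lower, against 32.1% and 22% of all genes, and Fads2 and Fads1 stood 1.17 and 0.92 above untreated samples (adjusted p = 0.000144 and 0.00144). Fatty acid oxidation genes rose at day 4 in 12 of 13 cases (41.8% of all genes), with a median of 0.71, and in 10 of 13 at day 7 (32.1% of all genes), with a median of 0.64, and with the same centring these medians turned to -0.02 and -0.50. Decr1, which prepares unsaturated acyl chains for oxidation, rose by 1.19 at day 4 (adjusted p = 1.43e-05). Of 12 further sterol synthesis and SREBP genes 4 rose and 2 fell at day 4. The 2 that fell were Nfyb, an NF-Y subunit (-1.50, adjusted p = 2.26e-05), and Lbr, a lamin B receptor that is also a sterol reductase. Lbr was at 11.56, 11.04 and 11.66 in untreated samples, at 7.80, 7.65 and 7.62 at day 4 and at 9.75, 9.69 and 9.80 at day 7. Scap, the escort of SREBP, rose by 0.51 at day 4 (adjusted p = 0.0023).

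**Figure D4:**
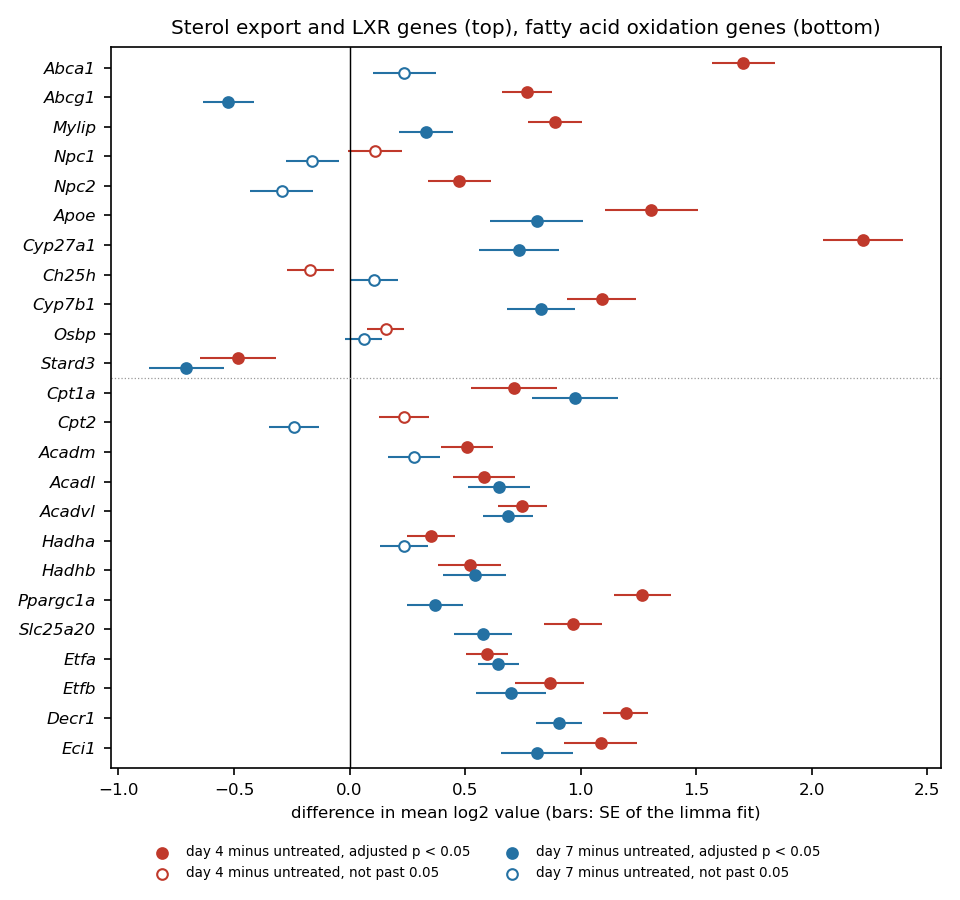
Differences on the log2 scale (horizontal axis) of the tested sterol export and LXR genes (upper block) and fatty acid oxidation genes (lower block), for day 4 (red) and day 7 (blue) against untreated, with bars of 1 SE of the limma fit and filled points past an adjusted p of 0.05. Cyp27a1 at 2.22 and Abca1 at 1.70 lie farthest to the right at day 4, and with arrays centred on fibroblast and endothelial markers the median of the lower block turns to -0.02 at day 4 and -0.50 at day 7.

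The makeup of the samples moved along with these groups. The shares over all tested genes were 41.8% called higher and 21.4% lower at day 4, and 32.1% and 22% at day 7. The 15 tested thymocyte markers all fell at day 4, with a median of -5.27, and averaged 9.23 to 9.71 on untreated arrays, 3.67 to 4.04 on day 4 arrays and 6.91 to 7.00 on day 7 arrays. Ptprc, which encodes CD45, was at 12.25, 11.96 and 12.45 in untreated samples despite the depletion, at 4.18, 4.52 and 5.22 at day 4 and at 9.63, 9.26 and 9.64 at day 7. The 15 tested mitosis genes fell likewise and averaged 8.01 to 8.68, 3.43 to 3.72 and 6.53 to 6.81. The low point at day 4 is shared by the cholesterol enzymes, the thymocyte markers and the mitosis genes, and the part of the last 2 in the fall of the first was not tested. The epithelial markers averaged 11.2 to 11.4, 11.6 to 11.7 and 11.5, so the labelled stroma was present in every group. The 12 medullary and keratinising epithelial markers went down, with 8 lower and 0 higher at day 4 (median -1.35; 0 higher also at an unadjusted p under 0.05) and all 12 lower at day 7 (median -1.95). They averaged 8.34, 8.49 and 7.13 on untreated arrays, 6.75 to 7.02 at day 4 and 5.98 to 6.04 at day 7, so that untreated replicate 3 stood apart from the other untreated arrays. The part of these epithelial genes in the results on the members was not tested. Of 13 fibroblast markers 12 were higher at day 4 and 1 lower, and all 13 tested endothelial markers were higher at day 7, with a median of 2.72.

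Adipocyte markers were also higher after irradiation. Among all tested genes 41.8% were called higher and 21.4% lower at day 4, and 32.1% were called higher at day 7. Of 11 tested adipocyte markers 7 rose at day 4 and 0 fell in the limma fit (0 also at an unadjusted p under 0.05), with a median of 1.51, and 7 rose at day 7. They averaged 5.82, 6.24 and 5.86 in untreated samples, 8.71, 7.13 and 7.52 at day 4 and 7.38, 7.84 and 6.98 at day 7, while Lep and Lipe stayed below the detection level on all arrays. Adipoq, the adipocyte hormone adiponectin, was at 9.39, 6.34 and 7.10 on the day 4 arrays and at 4.15, 4.80 and 3.90 on the untreated ones. At day 4 the order of the 3 arrays was the same for this list mean, Scd1 and Elovl6, with replicate 1 highest and replicate 2 lowest. Acaca had this order too, as did Fasn, Acly and Scd2, which were not called higher. At day 7 the list mean was highest in replicate 2, and Scd1 and Elovl6 in replicate 1. In untreated samples the list mean and Scd1 were highest in replicate 2, where Elovl6 was lowest. Without day 4 replicate 1, the differences were 1.20 for Scd1 (adjusted p = 0.013), 0.79 for Elovl6 (adjusted p = 0.00212) and 0.57 for Acaca (adjusted p = 0.00817). The day 4 arrays kept there had adipocyte list means of 7.13 and 7.52, also above every untreated array. The part of adipocyte RNA in the rise of the fatty acid enzymes was not tested. Of 8 macrophage markers 4 were bright enough to be tested, and Adgre1, Cd68, Fcgr1 and Cd163 were below the detection level on every array.

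Signs of RNA quality also differed at day 4. The 3-prime minus 5-prime value of the Actb control probe sets, a common measure of RNA quality, was 3.13 ± 0.17 (SD, n = 3) at day 4 and 2.28 ± 0.15 in untreated samples (exact permutation test, two-sided, p = 0.1, the smallest value that 3 against 3 arrays allow). For Gapdh it was 1.37 ± 0.24 at day 4 and 0.90 ± 0.13 in untreated samples (exact permutation p = 0.1). At day 7 both were close to untreated, at 2.51 ± 0.21 for Actb (exact permutation p = 0.2) and 0.90 ± 0.21 for Gapdh (exact permutation p = 1). The part of this shift in the day 4 differences was not tested. Arrays of a group correlated at 0.987 to 0.996 across the probe sets of the table, and probe sets are no independent replicates, and between 42.1% and 44.2% of the probe sets of an array reached the detection level.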

How the data were processed

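Transcript levels were measured in 9 samples on 1-colour Affymetrix arrays, 3 per group. The deposited table held 1 log2 value for each of 45101 probe sets and array. The authors made these values with GCRMA, per the submitters' processing notes, which corrects background, normalizes arrays and summarises probes. The range of the values, whose lowest was 2.27, gave the log base. The GCRMA version and settings were not given in the sources used here. GCRMA compresses differences near that lowest value.

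Of the probe sets 34945 had a single gene symbol in the platform annotation, 932 had several and 9160 none. Each of 18193 genes was represented by its brightest probe set by mean over the 9 arrays, and the 10937 genes at log2 4 or more on at least 3 arrays were tested. One limma 3.58.1 model (lmFit, then eBayes, in R 4.3.3) held all 9 arrays and the group alone, with Benjamini-Hochberg adjustment at 0.05 over all tested genes. Where all arrays of a group lay below 4, the fold is given as a bound. The control probe sets were compared with exact permutation tests. Figures were drawn with matplotlib 3.10.9. The fit was tested on simulated data.

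The members and lists were chosen with earlier results of these data known. All members were named, and of the other lists up to 5 genes with the smallest adjusted p per comparison, with a few preset ones, and of marker lists the first genes in order. The alternatives covered the filter, the choice of probe set, array weights, an intensity trend, centring, quantile normalization, a replicate block and leaving out each array. Deviations of samples with the same replicate number correlated between -0.12 and 0.18, so the numbers were not taken to pair samples.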

Additional observations from a re-analysis of the deposited data

Results flagged for a closer look

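Fdft1 and Msmo1 stood out because all 3 day 4 arrays lay below every untreated array and all 3 day 7 arrays above every one. The same pattern was found in 54 of 10937 tested genes (0.494%). Day 7 minus day 4 was 1.27 for Fdft1, the squalene synthase (adjusted p = 0.000106, limma fit over all genes), and 1.78 for Msmo1, a sterol methyl oxidase (adjusted p = 5.86e-05). The direction against untreated at day 7 turned for both with arrays centred on fibroblast and endothelial markers, to -0.50 and -0.23, while day 7 minus day 4 stayed called at 0.87 and 1.38.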

How the results depend on the processing

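The number of arrays and the floor of the values limit what can be read. The day 4 fall of 8 cholesterol enzymes was a count of 8 without each array in turn, 10 with centring on kept genes and 12 with centring on epithelial markers. Centring on fibroblast and endothelial markers gave, for cholesterol enzymes, 14 lower and 0 higher at day 4, 0 higher and 9 lower at day 7, and 7 higher at day 7 against day 4; for fatty acid enzymes, 1 higher and 3 lower, 0 higher and 4 lower, and 3 lower. For all genes it gave 875 higher and 5316 lower, 226 and 8834, and 420 and 4384. Under it signs turned, where a call was made before or after, for Sc5d (-0.63), Tm7sf2 (-0.34) and Acaca (-0.12) at day 4, for Sqle (-0.041) at day 7 against day 4, and at day 7 for Hmgcs1 (-1.01), Idi1 (-0.94), Fdps (-0.76), Fdft1 (-0.50), Sqle (-0.81), Lss (-0.19), Msmo1 (-0.23), Nsdhl (-0.77), Hsd17b7 (-0.34), Sc5d (-0.33), Tm7sf2 (-0.14), Insig2 (-0.92), Srebf1 (-0.30), Scd2 (-1.14), Fasn (-0.73), Acaca (-0.98) and Elovl6 (-0.35). Signs also turned with no call on either side for Insig2 at day 4 (-0.48), Scd1 at day 7 (-0.59), and Scd2 (-0.12) and Acly (-0.27) at day 7 against day 4. Without probe sets of the _x_at and _s_at kind, Lss at day 4 turned to 0.36 and was called higher (adjusted p = 0.0177).

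Centring on epithelial markers gave 2665 genes higher and 3883 lower at day 4, 2298 higher at day 7 and 1042 lower at day 7 against day 4. Genes lower at day 7 than at day 4 numbered 1280 without the filter, 2992 with array weights and 1010 to 2289 without each array, against 1921.

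The 1 cholesterol enzyme higher at day 4 was 0 without the filter, at level 6, with an intensity trend and with centring on kept genes or epithelial markers, 2 with the mean of probe sets or without _x_at and _s_at probe sets, 3 with every probe set on its own, and 0 to 1 without each array. The 1 lower at day 7 was 0 at level 6, 2 with the mean of probe sets or centring on kept genes, and 3 with array weights or epithelial centring.

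Fatty acid enzymes lower at day 4 (0) were 1 without _x_at and _s_at probe sets or with every probe set, 2 with an intensity trend, array weights, kept-gene or epithelial centring, and 0 to 2 without each array. Those higher at day 7 (1) were 0 without the filter, 2 with every probe set and 0 to 2 without each array. At day 7 against day 4, those higher (0) were 1 with array weights or every probe set and 0 to 1 without each array, and those lower (1) were 0 with the mean of probe sets, kept-gene or epithelial centring, 2 with an intensity trend or array weights and 0 to 2 without each array. The causes were not tested.

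With the replicate number as a block, which gave 4407 genes higher and 2262 lower at day 4, 77 of 78 member results kept direction and call, and Sqle at day 7 against day 4 lost its call (0.36, adjusted p = 0.0544, limma). The numbers did not pair the samples.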
